A study of Mus musculus with 9 samples.

Results

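p53, encoded by Trp53, is a transcription factor that restrains growth after DNA damage and other stress, and the genes described here are Trp53 itself, its regulators and a set of its known target genes. The set was chosen from a list of 34 genes, and a gene was kept where its mean FPKM over the 9 libraries was at least 0.5. FPKM is a level scaled by gene length and library size. By this rule 33 of the 34 were kept, among 13990 genes of the whole data set that met the same level. They comprised 7 genes of feedback and regulation, 8 of cell cycle arrest, 12 of apoptosis and 6 of DNA repair and nucleotide supply. The gene left out was Fas, a death receptor of the apoptosis group, whose mean FPKM of 0.496 lay just under the limit. Its FPKM was 1.02, 1.57 and 0.98 in the WT libraries and between 0.12 and 0.19 in the 6 KO libraries. Rrm2b, the kept gene with the lowest level, had a mean FPKM of 1.49.

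In unstressed cells p53 is held down by Mdm2, a ubiquitin ligase that marks it for degradation, and by the related Mdm4, which covers its activation domain. When p53 is released it binds paired DNA elements near its targets. Those targets stop the cell cycle (Cdkn1a), permit apoptosis (Bbc3, Bax) or assist repair (Xpc, Ddb2), and Mdm2, Ccng1 and Ppm1d among them feed back to switch p53 off. Embryonic stem cells of the mouse carry abundant p53 and transcribe many of its targets in ordinary culture.

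The cells were E14 mouse embryonic stem cells of strain 129, either wild type (WT) or carrying Hbxip-/- (KO). Hbxip, now named Lamtor5, encodes a subunit of Ragulator, the lysosomal scaffold through which amino acids activate mTORC1. RNA was sequenced from cells kept pluripotent, from cells at day 4 after 96 h of LIF withdrawal, and from embryoid bodies, with 1 WT and 2 KO libraries in each of these 3 conditions. The labels give no damaging agent for any group and do not say whether the 2 KO libraries of a condition came from separate clones or cultures, so that the tests speak of the spread among these libraries and no further. With 1 WT library per condition, a deviation of that library cannot be told apart from the genotype.

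The 9 libraries held 10147301 to 10863866 counts. On the first principal component (51.8% of the variance) the 2 KO libraries of pluripotent culture stood apart, at 78.3 and 68.2, with the other 7 between -58.6 and 9.9. Lamtor5 had an FPKM of 40.7 in WT and 31.0 and 29.1 in KO in pluripotent culture, 38.5 against 16.2 and 15.5 after LIF withdrawal, and 41.8 against 23.0 and 18.3 in embryoid bodies. The WT libraries were highest in each condition, yet in pluripotent culture the difference was not called, with a log2 fold change of -0.32 (SE 0.15, adjusted p = 0.0971), and the labels do not give which exons the deletion removes. Summed FPKM of 10 markers of pluripotent cells ran from 4039 to 5194 over all libraries, of which Dppa5a alone gave 1565 to 2604. Single markers differed between the genotypes. Nanog fell in all 3 conditions (log2 fold changes of -0.60, -0.33 and -0.38). Sox2 and Zfp42 fell in pluripotent culture (-0.54 and -0.31). Both rose after LIF withdrawal (0.45 and 0.87) and in embryoid bodies (0.35 and 0.79). For 7 markers of fibroblasts and feeder cells the sum was lower in KO in each condition, 36.3 in WT against 16.9 and 21.2 in pluripotent culture, 15.2 against 6.1 and 7.8 after LIF withdrawal, and 31.6 against 20.4 and 21.6 in embryoid bodies. Most of that sum was Thy1, with an FPKM of 34.2, 12.8 and 24.9 in the WT libraries of the 3 conditions. Thy1 fell in the first 2 conditions (-0.76 and -0.95) and was not called in embryoid bodies (-0.37, adjusted p = 0.0675 by edgeR). Col1a1, a collagen chain of the same list, fell, with log2 fold changes of -3.26, -2.29 and -2.03. Its FPKM in pluripotent culture was 1.96 in WT and 0.19 and 0.18 in KO. Col3a1, Dcn, Lum and Postn lay under an FPKM of 0.5 in every library. The sum of 6 neuroectoderm markers was 127.4 in WT against 55.9 and 54.5 in KO in pluripotent culture. It was 66.1 against 58.4 and 54.2 after LIF withdrawal, but 41.7 against 47.7 and 41.3 in embryoid bodies. Tubb3 alone had 118 in WT and 51.8 and 49.8 in KO in pluripotent culture. Sox1 rose in all 3 conditions (log2 fold changes of 1.09, 4.64 and 3.86), from an FPKM of 0.9, 0.37 and 0.19 in WT. Nes fell in all 3 (-1.75, -3.01 and -2.32), as did Sox11. Marker sums of 7 mesendoderm genes were 51.0 and 74.4 in the WT libraries after LIF withdrawal and in embryoid bodies, against 11.4 to 15.8 in the KO libraries there. For 9 extraembryonic endoderm markers the sum was 106 in WT and 1229 and 1084 in KO in pluripotent culture, nearly all of it Apoe, while Sox17, Afp and Ttr lay under an FPKM of 0.5 throughout. Apoe, Amn and Gata6 rose there (log2 fold changes of 3.646, 3.600 and 1.167), Sox7 and Dab2 fell (-1.845 and -1.161), and Gata4 was not called. The sum was 154.7 in WT against 357.7 and 318.7 in KO after LIF withdrawal, and 309.9 against 513.0 and 443.6 in embryoid bodies. These marker levels, some lower and some higher in KO, stood beside the falls of the members given below, and their part in those results was not tested. In such bulk libraries, fewer cells of a type and less RNA per cell cannot be told apart.

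Promoter sequence is shown for the members with letters of the p53 element near their start, since these are the stretches its consensus matches. RefSeq windows of build GRCm38.p6, from 250 bases before to 50 bases after a transcription start, were at hand for 25 of the 33 members (37 windows). The search used the p53 consensus unit of 10 bases, which is 3 purines, C, 2 bases that are each A or T, G and 3 pyrimidines, and which reads the same on both strands. It also used the full 20-base element, which is that unit repeated with no spacer, with at most 1 mismatch, so that every full match also holds a perfect unit. The 20-base element was found in 3 of the 25 members (12.0%), against 29 of all 27025 genes with a window (0.107%) and 0.0883% of the 32851 windows. The 10-base unit was found in 11 of the 25 members (44.0%), against 9.55% of all genes and 8.36% of windows. A match is a description of letters, and no binding was measured here. The windows with the full element belong to Ccng1 (chr11:40755237-40755536, minus strand), Gtse1 (chr15:85859696-85859995, plus strand) and Cdkn1a (chr17:29090729-29091028, plus strand, the upstream of 2 annotated starts), with the element in capitals, beginning 195 bases, 1 base and 51 bases before the start.
Ccng1: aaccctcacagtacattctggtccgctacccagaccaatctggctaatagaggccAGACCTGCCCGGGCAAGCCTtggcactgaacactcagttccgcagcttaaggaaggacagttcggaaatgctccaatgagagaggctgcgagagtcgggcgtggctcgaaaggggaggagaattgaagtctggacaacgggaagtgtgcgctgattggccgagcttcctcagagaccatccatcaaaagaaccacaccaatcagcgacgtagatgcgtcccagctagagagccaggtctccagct
Gtse1: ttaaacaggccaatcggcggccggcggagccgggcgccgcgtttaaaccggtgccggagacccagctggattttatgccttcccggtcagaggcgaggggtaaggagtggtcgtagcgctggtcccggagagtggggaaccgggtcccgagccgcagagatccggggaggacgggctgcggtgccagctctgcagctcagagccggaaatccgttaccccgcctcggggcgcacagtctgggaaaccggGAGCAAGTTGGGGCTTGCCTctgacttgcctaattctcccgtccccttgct
Cdkn1a: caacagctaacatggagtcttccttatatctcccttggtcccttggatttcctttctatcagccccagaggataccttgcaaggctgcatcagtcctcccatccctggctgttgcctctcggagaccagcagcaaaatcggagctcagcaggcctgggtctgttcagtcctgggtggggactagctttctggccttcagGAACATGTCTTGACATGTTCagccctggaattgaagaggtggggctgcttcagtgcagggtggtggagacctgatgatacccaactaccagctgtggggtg
Of these, Ccng1 was lower in KO in all 3 conditions, Cdkn1a in 2 of the 3 by the test, and Gtse1 in none. Shorter stretches of 30 bases are shown for the other 8 members with a perfect 10-base unit, in capitals. They lie in the windows of Mdm2 (chr10:117710709-117711008, minus strand), Trp53 (chr11:69580109-69580408, plus strand), Ppm1d (chr11:85311004-85311303, plus strand) and Gadd45a (chr6:67037358-67037657, minus strand). The others are those of Bax (chr7:45466849-45467148, minus strand), Aen (chr7:78895677-78895976, plus strand), Ei24 (chr9:36797285-36797584, minus strand) and Polk (chr13:96519138-96519437, minus strand).
Mdm2: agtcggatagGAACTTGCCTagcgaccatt
Trp53: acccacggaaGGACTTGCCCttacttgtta
Ppm1d: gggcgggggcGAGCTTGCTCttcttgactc
Gadd45a: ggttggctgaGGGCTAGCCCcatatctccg
Bax: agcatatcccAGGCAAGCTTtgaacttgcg
Aen: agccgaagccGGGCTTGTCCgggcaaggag
Ei24: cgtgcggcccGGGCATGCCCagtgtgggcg
Polk: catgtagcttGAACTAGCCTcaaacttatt
Plk2, Btg2, Bbc3, Phlda3, Apaf1, Ercc5, Eda2r, Ak1 and Psrc1, all of which fell in the 3 conditions, had no unit in their windows. Nor had Tob1, Sfn, Mdm4 and Trp73, which fell in some of the conditions, or Plk3, which rose in all 3. This says only that these letters are not in those 300 bases. Perp, Zmat3, Trp53inp1, Pmaip1, Tnfrsf10b, Xpc, Ddb2 and Rrm2b were not matched to the table.

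Most of the set was lower in KO cells. In pluripotent culture 24 of the 33 members fell and 4 rose, where 26.3% of all tested genes fell and 25.5% rose (51.8% called in all). After LIF withdrawal 23 fell and 2 rose, against 17.4% and 18.4% of all genes (35.8% in all), and in embryoid bodies 18 fell and 1 rose, against 17.7% and 19.4% (37.2% in all). Throughout, rose and fell mean an adjusted p below 0.05 in the quasi-likelihood test of edgeR, adjusted by Benjamini and Hochberg's method over all tested genes. The median log2 fold change of the members was -0.52, -0.73 and -0.36 in the 3 conditions in that order, beside -0.01, 0.00 and 0.00 for all tested genes. Over the 3 conditions together, 21 members fell and 1 rose, against 13.8% and 13.3% of all genes (27.1% in all), with a median of -0.54. Both KO libraries lay below WT in FPKM for 27, 27 and 25 of the 33 members in the 3 conditions in the same order, against 53.2%, 48.0% and 43.8% of all genes. All 6 KO libraries lay below the WT library of their condition for 20 of 33 members, against 22.1% of all genes.

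The genes that fell in each of the 3 conditions were 15 of the 33, against 5.65% of all genes. They were Mdm2 and Ccng1 of the feedback group, Btg2, Plk2 and Psrc1 of the arrest group, Bbc3, Apaf1, Perp, Zmat3, Phlda3, Trp53inp1 and Eda2r of the apoptosis group, and Ercc5, Polk and Ak1 of the repair group. In DESeq2, an alternative test, Mdm2, Ccng1, Eda2r, Polk, Ak1 and Psrc1 lost the call in embryoid bodies. Btg2, Phlda3 and Psrc1 lost the call in pluripotent culture in that test. Plk2, Bbc3, Apaf1, Perp, Zmat3, Trp53inp1 and Ercc5 kept all 3 calls in DESeq2, which called fewer of all genes in each condition. One member, Plk3, rose in all 3, against 6.92% of all genes. The 3 comparisons share no library, although all rest on 1 fit and so on 1 estimate of the spread.

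**Figure D1:**
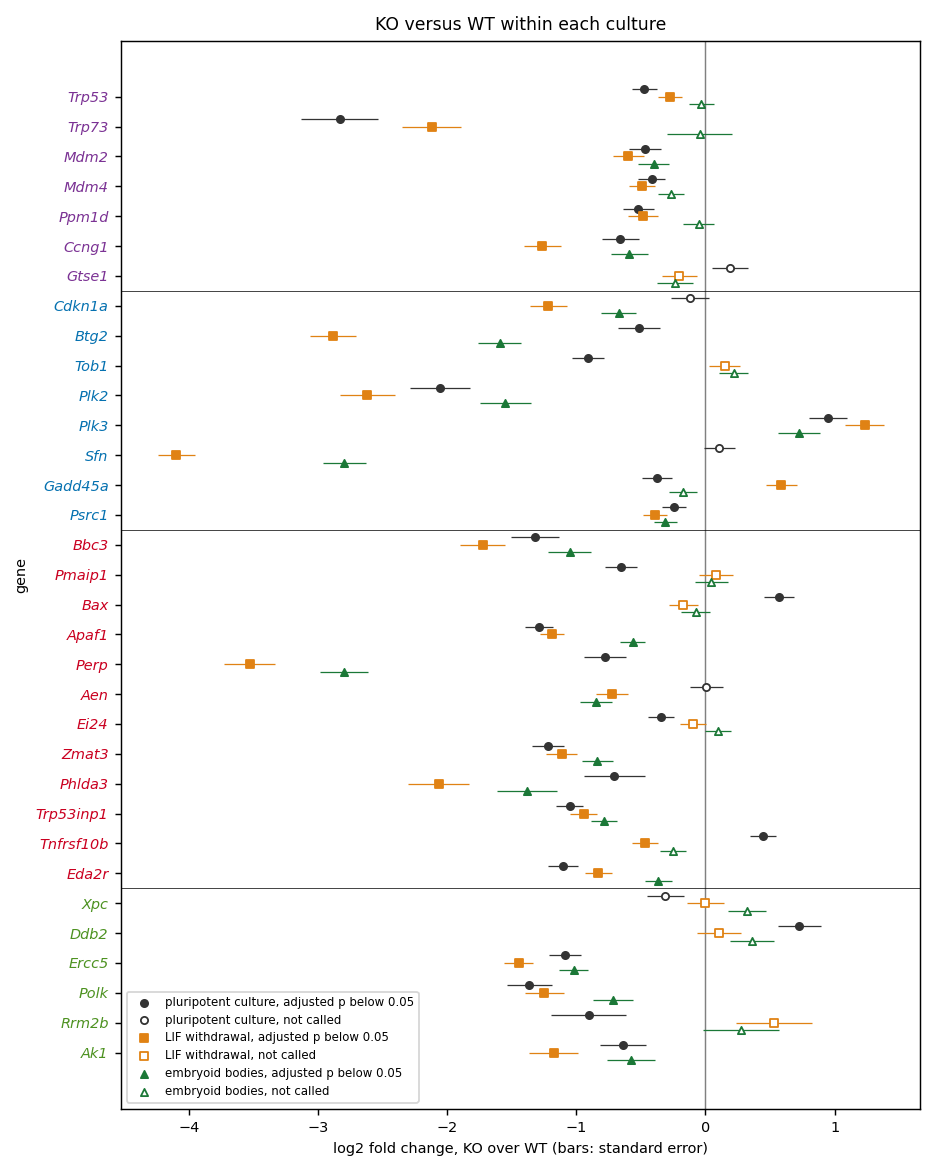
Log2 fold change of KO over WT (x axis) for each of the 33 members (y axis, ordered by role and coloured by group) for pluripotent culture (black circles), LIF withdrawal (orange squares) and embryoid bodies (green triangles). Filled symbols have an adjusted p below 0.05 and bars are standard errors from the test; most symbols lie left of 0, Plk3 lies right of it in all 3 conditions, and Sfn and Perp reach furthest left outside pluripotent culture.

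Trp53 itself was among the most abundant members. Its FPKM was 145 in WT and 96.6 and 96.7 in KO in pluripotent culture, 149.9 against 126 and 112 after LIF withdrawal, and 139 against 135 and 139 in embryoid bodies. The KO libraries were clearly lower in pluripotent culture, less so after LIF withdrawal, and level with WT in embryoid bodies. Trp53 fell in pluripotent culture, with a log2 fold change of -0.47 (SE 0.09, adjusted p = 0.0012), and after LIF withdrawal, with -0.27 (SE 0.09, adjusted p = 0.0392), while the value in embryoid bodies was -0.03 (SE 0.10, adjusted p = 0.83). The call after LIF withdrawal was lost without the second KO library of that condition (-0.17, adjusted p = 0.17), without either KO embryoid body library (-0.27 in each case), with no filter on low values (-0.24) and in DESeq2 (-0.27, adjusted p = 0.105). Wrap53, the neighbour that starts next to Trp53 on the opposite strand, was not called in any KO versus WT comparison, with an FPKM of 18.7 in WT and 16.3 and 17.4 in KO in pluripotent culture.

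Mdm2 and Mdm4, the inhibitors of p53, were lower in KO as well. The FPKM of Mdm2 was 42.0 in WT and 28.1 and 27.4 in KO in pluripotent culture, 45.1 against 31.5 and 25.5 after LIF withdrawal, and 43.6 against 34.7 and 31.7 in embryoid bodies. WT values lay close together across conditions and every KO value lay below them. Mdm2 fell in each condition, with log2 fold changes of -0.47 in pluripotent culture (SE 0.12, adjusted p = 0.00662), -0.60 after LIF withdrawal (SE 0.12, adjusted p = 0.00212) and -0.40 in embryoid bodies (SE 0.12, adjusted p = 0.0213). The call in embryoid bodies was lost without the second KO library there (-0.34, adjusted p = 0.122), in DESeq2 (-0.41, adjusted p = 0.0576) and in both limma fits (-0.38 and -0.39). Mdm4 had an FPKM of 26.3 in WT and 18.0 and 18.6 in KO in pluripotent culture, 24.4 against 17.0 and 16.04 after LIF withdrawal, and 30.9 against 27.9 and 23.6 in embryoid bodies. Log2 fold changes of -0.41 and -0.49 passed the test in pluripotent culture and after LIF withdrawal (SE 0.10 each, adjusted p = 0.00509 and 0.00281), and the value of -0.27 in embryoid bodies did not (SE 0.10, adjusted p = 0.0586). That value was called with the replicate block (-0.27, adjusted p = 0.0129) and without the first KO embryoid body library (-0.39, adjusted p = 0.0209).

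Ccng1 encodes cyclin G1, which brings a phosphatase to Mdm2, and it was among the abundant feedback genes. In pluripotent culture its FPKM was 91.7 in WT and 54.6 and 52.0 in KO. After LIF withdrawal WT stood at 135 and KO at 59.8 and 47.8, and in embryoid bodies WT stood at 118 and KO at 87.7 and 69.4. No KO library reached any WT library. Ccng1 fell, with log2 fold changes of -0.66 (SE 0.14, adjusted p = 0.00228), -1.26 (SE 0.14, adjusted p = 2.6e-05) and -0.59 (SE 0.14, adjusted p = 0.00642) in the 3 conditions in that order. In embryoid bodies the call was lost without the second KO library (-0.43, adjusted p = 0.054) and in DESeq2 (-0.60, adjusted p = 0.0762).

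Of the other feedback genes, Ppm1d, a phosphatase that removes activating marks from p53, had log2 fold changes of -0.52, -0.48 and -0.05 in the 3 conditions (adjusted p = 0.003, 0.00632 and 0.761), and so fell in the first 2. Trp73, the paralog of Trp53, had an FPKM of 2.85 in WT and 0.46 and 0.27 in KO in pluripotent culture, 5.47 against 1.41 and 1.0 after LIF withdrawal, and 2.03 against 1.96 and 1.98 in embryoid bodies. It was thus low in 4 KO libraries and level with WT in embryoid bodies. Trp73 fell, with log2 fold changes of -2.83 (SE 0.30, adjusted p = 9.29e-06) and -2.12 (SE 0.23, adjusted p = 1.85e-05) in the first 2 conditions, with a value of -0.05 in embryoid bodies (SE 0.25, adjusted p = 0.905). The rounded counts behind it were 145 in WT and 23 and 13 in KO in pluripotent culture, so its folds there rest on few counts. Gtse1, which moves p53 out of the nucleus in late cell cycle phases, was called in no condition, with log2 fold changes of 0.19, -0.20 and -0.24. Trp53 has a processed pseudogene that the deposited tables do not list, so reads shared with it may sit in the Trp53 value.

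**Figure D2:**
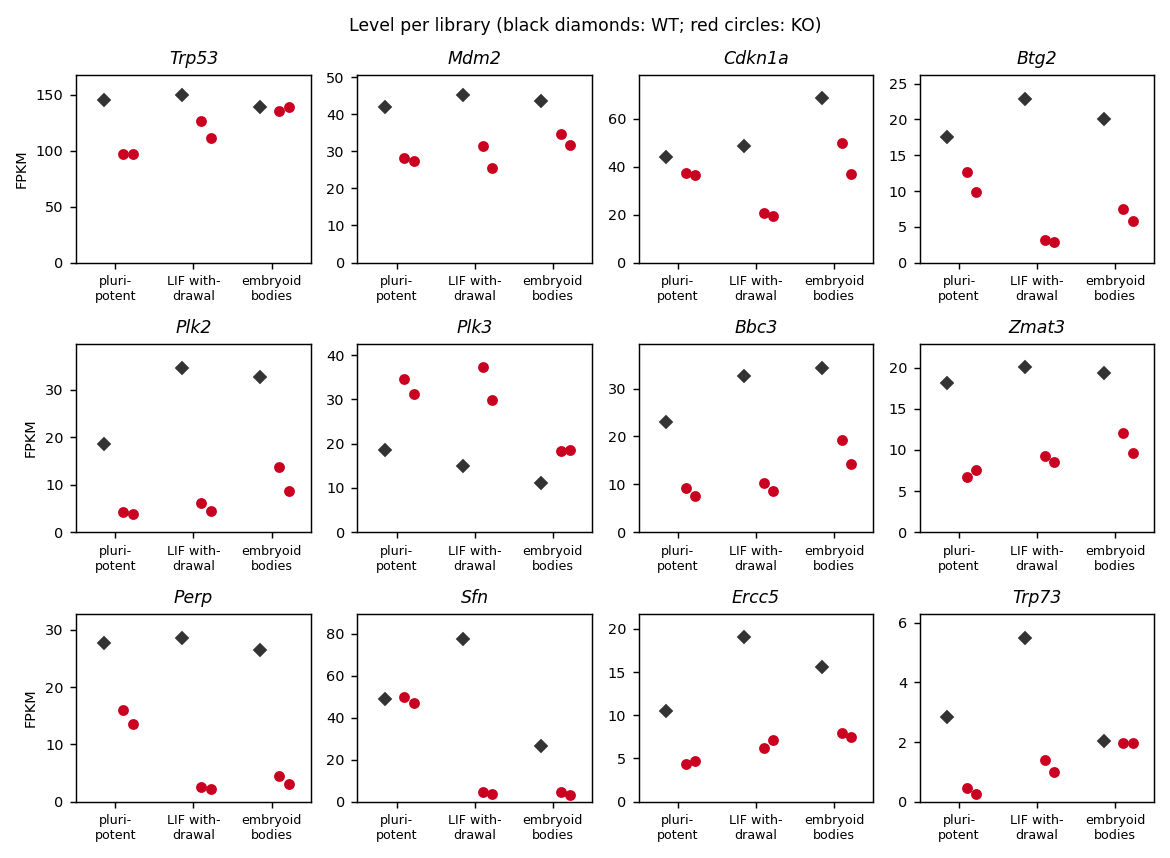
FPKM (y axes, linear and starting at 0) of 12 members in each library, with the 3 conditions along the x axis, black diamonds for the WT library and red circles for the 2 KO libraries of each condition. The KO circles lie below the WT diamond in each condition for Mdm2, Cdkn1a, Btg2, Plk2, Bbc3, Zmat3, Perp and Ercc5, above it for Plk3, and level with it for Sfn in pluripotent culture and for Trp73 and Trp53 in embryoid bodies.

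Among the arrest genes, Cdkn1a encodes p21, the inhibitor of cyclin-dependent kinases through which p53 halts the cycle. Its FPKM was 43.9 in WT and 37.5 and 36.4 in KO in pluripotent culture, 48.5 against 20.6 and 19.4 after LIF withdrawal, and 68.7 against 49.8 and 36.9 in embryoid bodies. The KO libraries were lowest after LIF withdrawal, and in pluripotent culture they lay only a little under WT. The log2 fold change was -0.12 in pluripotent culture (SE 0.14, adjusted p = 0.509). Cdkn1a fell after LIF withdrawal, with -1.22 (SE 0.15, adjusted p = 4.37e-05), and in embryoid bodies, with -0.67 (SE 0.14, adjusted p = 0.00223).

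Plk2, a polo-like kinase induced by p53, showed one of the largest and most even differences. In pluripotent culture its FPKM was 18.6 in WT and 4.32 and 3.88 in KO. After LIF withdrawal the values were 34.5 against 6.24 and 4.52, and in embryoid bodies 32.7 against 13.8 and 8.67. Every KO library lay below every WT library. Plk2 fell, with log2 fold changes of -2.06 (SE 0.23, adjusted p = 1.8e-05), -2.62 (SE 0.21, adjusted p = 1.93e-06) and -1.55 (SE 0.20, adjusted p = 8.32e-05). Its relative Plk3 went the other way, with an FPKM of 18.6 in WT and 34.6 and 31.2 in KO in pluripotent culture, 14.9 against 37.4 and 29.8 after LIF withdrawal, and 11.1 against 18.3 and 18.5 in embryoid bodies. The KO libraries were highest in each condition, and Plk3 rose by 0.95, 1.23 and 0.73 (SE 0.15, 0.15 and 0.16; adjusted p = 0.000187, 5.18e-05 and 0.00387) on the log2 scale. In the GRCm38 annotation Plk3 overlaps the gene Tctex1d4, and without a stated strand reads from the pair cannot be told apart.

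Btg2, an antiproliferative partner of the mRNA deadenylase complex, had an FPKM of 17.5 in WT and 12.6 and 9.83 in KO in pluripotent culture. After LIF withdrawal the values were 22.9 against 3.09 and 2.85, and in embryoid bodies 19.99 against 7.52 and 5.77. The WT values lay close together, while KO was lower in the differentiating conditions than in pluripotent culture. Btg2 fell, with log2 fold changes of -0.52 (SE 0.17, adjusted p = 0.0199), -2.88 (SE 0.18, adjusted p = 3.18e-07) and -1.59 (SE 0.17, adjusted p = 1.74e-05). The call in pluripotent culture was lost without the second KO library (-0.33, adjusted p = 0.129) and in DESeq2 (-0.51, adjusted p = 0.0998). Tob1, of the same family, fell by 0.91 in pluripotent culture (adjusted p = 6.12e-05), with 0.15 and 0.22 in the other conditions (adjusted p = 0.377 and 0.157).

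Sfn encodes stratifin, which keeps mitotic kinase complexes in the cytoplasm and is abundant in epithelia. In pluripotent culture its FPKM was 49.1 in WT and 50.1 and 47.0 in KO, without separation of the genotypes. After LIF withdrawal it was 77.8 against 4.85 and 3.84, and in embryoid bodies 26.7 against 4.41 and 3.28. The log2 fold change was 0.11 in pluripotent culture (SE 0.12, adjusted p = 0.491), and Sfn fell after LIF withdrawal, with -4.10 (SE 0.14, adjusted p = 8.15e-09), and in embryoid bodies, with -2.80 (SE 0.17, adjusted p = 2.74e-07).

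Gadd45a, a stress protein that inhibits mitotic kinase activity, moved in opposite directions. Its FPKM was 41.8 in WT and 28.0 and 31.3 in KO in pluripotent culture, but 29.5 against 39.1 and 46.0 after LIF withdrawal, and 55.2 against 48.3 and 49.9 in embryoid bodies. It fell by 0.37 in the first (adjusted p = 0.0166), rose by 0.59 in the second (adjusted p = 0.00206) and had a log2 fold change of -0.17 in the last (adjusted p = 0.233). Psrc1, a spindle protein, fell, with log2 fold changes of -0.24, -0.39 and -0.31 (adjusted p = 0.0438, 0.00515 and 0.0165), from an FPKM of 77.3, 86.1 and 98.7 in WT. In pluripotent culture that call was lost under 8 alternatives, among them DESeq2 (-0.24, adjusted p = 0.176) and leaving out the first KO library (-0.28), the second (-0.20) or any of the 3 embryoid body libraries (-0.23, -0.24 and -0.24). In embryoid bodies it was lost without the second KO library (-0.26) and in DESeq2 (-0.32). Of the 8 arrest genes, 5 fell in pluripotent culture (Btg2, Tob1, Plk2, Gadd45a and Psrc1), where 26.3% of all genes fell. After LIF withdrawal and in embryoid bodies the 5 that fell were Cdkn1a, Btg2, Plk2, Sfn and Psrc1, against 17.4% and 17.7% of all genes. Thus 3 of the 8 fell in every condition (Btg2, Plk2 and Psrc1), against 5.65% of all genes. Plk3 rose in every condition, against 6.92% of all genes, and Gadd45a rose after LIF withdrawal.

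Among the apoptosis genes, Bbc3 encodes PUMA, a protein that neutralises the guardians of the BCL2 family. Its FPKM was 23.1 in WT and 9.32 and 7.60 in KO in pluripotent culture, 32.6 against 10.3 and 8.65 after LIF withdrawal, and 34.4 against 19.2 and 14.2 in embryoid bodies. All 6 KO values lay below the lowest WT value. Bbc3 fell, with log2 fold changes of -1.32 (SE 0.18, adjusted p = 9.07e-05), -1.73 (SE 0.17, adjusted p = 1.19e-05) and -1.05 (SE 0.17, adjusted p = 0.000418). Pmaip1, which encodes the related NOXA, had an FPKM of 47.9 in WT and 25.1 and 30.7 in KO in pluripotent culture, and fell by 0.66 there (SE 0.12, adjusted p = 0.000763). After LIF withdrawal and in embryoid bodies its log2 fold changes were 0.08 and 0.04 (adjusted p = 0.666 and 0.818).

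Bax, the pore-forming effector, was the most abundant member and was not lower in KO by the test in any condition. The FPKM was 171 in WT and 241 and 225 in KO in pluripotent culture, 186 against 170.0 and 146 after LIF withdrawal, and 215 against 213 and 197 in embryoid bodies. Bax rose by 0.57 in pluripotent culture (SE 0.11, adjusted p = 0.00123), with -0.17 and -0.07 in the other 2 conditions (adjusted p = 0.262 and 0.635). Apaf1, the scaffold of the apoptosome that acts after Bax, had an FPKM of 7.54 in WT and 2.74 and 2.93 in KO in pluripotent culture, 14.5 against 6.08 and 6.12 after LIF withdrawal, and 9.58 against 6.46 and 6.53 in embryoid bodies. The KO libraries of each condition lay close together and under WT. Apaf1 fell, with log2 fold changes of -1.29, -1.19 and -0.56 (SE 0.11, 0.09 and 0.10; adjusted p = 1.63e-06, 1.63e-06 and 0.000752). Apaf1 overlaps Ikbip in the GRCm38 annotation, and reads from the overlap cannot be told apart without a stated strand.

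Perp encodes a membrane protein of cell junctions that p53 induces during apoptosis and that epithelia use in desmosomes. Its FPKM was 27.8 in WT and 16.1 and 13.6 in KO in pluripotent culture, 28.5 against 2.59 and 2.14 after LIF withdrawal, and 26.5 against 4.51 and 3.13 in embryoid bodies. WT was level across conditions, and KO was lower in the differentiating conditions than in pluripotent culture. Perp fell in all 3 conditions, with log2 fold changes of -0.78 (SE 0.17, adjusted p = 0.00183), -3.53 (SE 0.20, adjusted p = 1.47e-07) and -2.80 (SE 0.19, adjusted p = 6.14e-07). The summed level of epithelial markers was lower in KO in each condition, as Perp was, whereas Sfn fell after LIF withdrawal and in embryoid bodies and was level in pluripotent culture. The summed FPKM of 8 such genes was 249.8 in WT and 125 and 125 in KO in pluripotent culture, 511 against 134 and 141 after LIF withdrawal, and 503 against 191 and 210 in embryoid bodies. Of the 5 markers tested, 4 fell and Krt8 rose in pluripotent culture, and all 5 fell in each of the other conditions, while Krt14 and Trp63 lay under an FPKM of 0.5 in every library. The part of these markers in the Perp and Sfn results was not tested.

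Several further apoptosis genes were lower in KO throughout. Zmat3, an RNA-binding zinc finger protein, had an FPKM of 18.1 in WT and 6.76 and 7.57 in KO in pluripotent culture, 20.1 against 9.28 and 8.55 after LIF withdrawal, and 19.4 against 12.1 and 9.68 in embryoid bodies. It fell, with log2 fold changes of -1.22, -1.11 and -0.84 (SE 0.12 each; adjusted p = 6.69e-06, 1.85e-05 and 0.00018). Trp53inp1, a stress-induced nuclear protein that enhances p53 activity, had an FPKM of 38.4 in WT and 17.1 and 16.9 in KO in pluripotent culture, 54.1 against 27.9 and 26.1 after LIF withdrawal, and 74.9 against 47.3 and 39.8 in embryoid bodies. It was higher in both differentiating conditions in either genotype and lower in KO within each condition. Trp53inp1 fell, with log2 fold changes of -1.05, -0.94 and -0.79 (SE 0.11, 0.10 and 0.10; adjusted p = 7e-06, 2.11e-05 and 8.21e-05).

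Phlda3, which competes with AKT for membrane lipids, had an FPKM of 29.4 in WT and 18.3 and 14.7 in KO in pluripotent culture, 43.3 against 11.6 and 8.26 after LIF withdrawal, and 38.0 against 18.1 and 11.1 in embryoid bodies. The 2 KO libraries differed from each other more than for most members, and still lay below WT. Phlda3 fell, with log2 fold changes of -0.71, -2.06 and -1.38 (SE 0.24, 0.23 and 0.23; adjusted p = 0.0244, 2.94e-05 and 0.000583). The call in pluripotent culture was lost without the second KO library (-0.53, adjusted p = 0.124), in DESeq2 (-0.70, adjusted p = 0.248) and in both limma fits (-0.80 and -0.84).

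The receptors of the set differed from one another. Eda2r, the receptor for an ectodysplasin isoform, had an FPKM of 16.8 in WT and 6.88 and 6.6 in KO in pluripotent culture, 21.8 against 11.8 and 11.3 after LIF withdrawal, and 20.6 against 17.8 and 15.5 in embryoid bodies. It fell, with log2 fold changes of -1.11, -0.83 and -0.36 (SE 0.12, 0.11 and 0.11; adjusted p = 8.7e-06, 8.01e-05 and 0.0171). The last call was lost without the second KO embryoid body library (-0.26, adjusted p = 0.133), in DESeq2 (-0.37) and in both limma fits (-0.29 and -0.31). Tnfrsf10b, the TRAIL receptor, rose by 0.44 in pluripotent culture (adjusted p = 0.00314), fell by 0.47 on the log2 scale after LIF withdrawal (adjusted p = 0.00321) and had a log2 fold change of -0.25 in embryoid bodies (adjusted p = 0.0723). Aen, a nuclease that cuts DNA in dying cells, was level in pluripotent culture (0.01, adjusted p = 0.977), and fell, with log2 fold changes of -0.73 and -0.85 in the other conditions (adjusted p = 0.000726 and 0.000199). Ei24, a protein of the endoplasmic reticulum, fell by 0.34 on the log2 scale in pluripotent culture (adjusted p = 0.0139) and had values of -0.10 and 0.10 in the others. Of the 12 apoptosis genes, 9 fell in pluripotent culture, 9 fell after LIF withdrawal and 8 fell in embryoid bodies, against 26.3%, 17.4% and 17.7% of all genes. The 2 that rose, Bax and Tnfrsf10b, did so in pluripotent culture, where 25.5% of all genes rose.

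Of the 6 repair genes, Ercc5, Polk and Ak1 fell in all 3 conditions, against 5.65% of all genes. Ercc5, the nuclease that cuts on the 3' side of a lesion in nucleotide excision repair, had an FPKM of 10.5 in WT and 4.36 and 4.69 in KO in pluripotent culture. After LIF withdrawal the values were 19.1 against 6.22 and 7.17, and in embryoid bodies 15.6 against 7.93 and 7.50. No KO library reached a WT library. Ercc5 fell, with log2 fold changes of -1.09, -1.45 and -1.02 (SE 0.12, 0.11 and 0.11; adjusted p = 1.64e-05, 1.3e-06 and 2.28e-05). Polk, a polymerase that copies past damaged bases, had an FPKM of 5.06 in WT and 1.85 and 1.75 in KO in pluripotent culture, 7.83 against 2.83 and 3.51 after LIF withdrawal, and 6.61 against 4.06 and 4.02 in embryoid bodies. Polk fell, with log2 fold changes of -1.36, -1.25 and -0.71 (SE 0.17, 0.15 and 0.15; adjusted p = 4.23e-05, 5.47e-05 and 0.00327), and the call in embryoid bodies was lost in DESeq2 (-0.72, adjusted p = 0.0625).

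Xpc and Ddb2, which recognise damage at the start of nucleotide excision repair, had no fall called in any condition. The log2 fold changes of Xpc were -0.31, 0.00 and 0.32 (adjusted p = 0.0854, 0.997 and 0.113). Ddb2 had an FPKM of 6.21 in WT and 9.26 and 9.64 in KO in pluripotent culture and rose by 0.73 there (SE 0.16, adjusted p = 0.00273), with 0.10 and 0.36 in the other conditions (adjusted p = 0.664 and 0.122). Ddb2 overlaps Acp2 in the GRCm38 annotation. Rrm2b, the ribonucleotide reductase subunit that supplies nucleotides for repair, fell by 0.90 on the log2 scale in pluripotent culture (SE 0.29, adjusted p = 0.0196), at FPKM values of 2.02 in WT and 0.99 in both KO libraries. Its KO libraries lay above WT elsewhere, with 1.3 in WT against 1.34 and 2.25 after LIF withdrawal, and 1.31 against 1.55 and 1.63 in embryoid bodies. Neither difference was called. Ak1, an adenylate kinase, had an FPKM of 38.3 in WT and 25.2 and 19.9 in KO in pluripotent culture, 27.1 against 13.2 and 9.72 after LIF withdrawal, and 26.4 against 19.8 and 15.8 in embryoid bodies. It fell, with log2 fold changes of -0.64, -1.18 and -0.58 (SE 0.18, 0.19 and 0.19; adjusted p = 0.00929, 0.000476 and 0.0293). Without the second KO library of the condition the call for Ak1 was lost in pluripotent culture (-0.46) and in embryoid bodies (-0.42), where it was also lost in DESeq2 (-0.58) and both limma fits (-0.55 and -0.58).

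**Figure D3:**
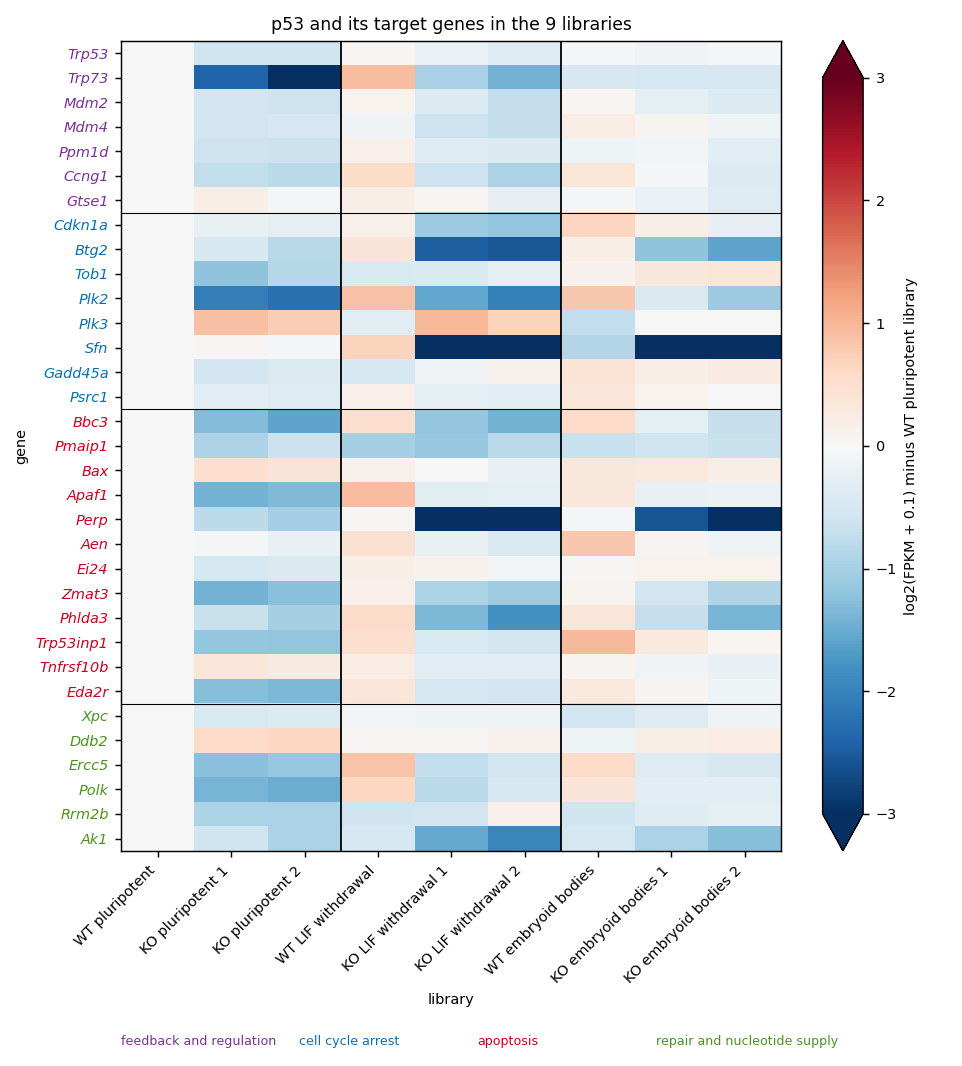
Level of each of the 33 members (rows, ordered by role and coloured by group) in each of the 9 libraries (columns), as log2(FPKM + 0.1) minus the value in the WT pluripotent library, with the colour scale limited to -3 and 3. Blue rows such as Plk2, Bbc3, Zmat3, Ercc5 and Polk are lower in the KO libraries than in the WT library of the same condition, Sfn and Perp are darkest in the KO libraries after LIF withdrawal and in embryoid bodies, and Plk3 is red in the first 4 KO libraries.

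In the fit over all 3 conditions, in which each WT library is set against its own 2 KO libraries, the lowest log2 fold changes among members were those of Sfn at -2.53 (SE 0.63, adjusted p = 0.0188), Perp at -2.45 (SE 0.41, adjusted p = 0.00323) and Plk2 at -2.09 (SE 0.21, adjusted p = 0.000334). Btg2 and Trp73 both had a log2 fold change of -1.73 (SE 0.35 and 0.43, adjusted p = 0.00742 and 0.0186). The values of Bbc3, Ercc5, Polk, Zmat3 and Apaf1 were -1.37, -1.19, -1.11, -1.06 and -1.02, and all 5 fell. Trp53 had -0.26 and was not called (SE 0.10, adjusted p = 0.0729), although it was without the WT embryoid body library (-0.37, adjusted p = 0.0224). Mdm2 had -0.49 (adjusted p = 0.00542), Mdm4 -0.39 (adjusted p = 0.00913) and Cdkn1a -0.69 (SE 0.18, adjusted p = 0.0228). The differences of Sfn, Trp73, Perp and Btg2 varied between conditions, and their standard errors were the largest of those given here. Leaving out the WT library after LIF withdrawal took the calls from Sfn (-1.44, adjusted p = 0.132), Trp73 (-1.48, adjusted p = 0.125), Cdkn1a (-0.41, adjusted p = 0.135), Mdm4 (-0.34), Psrc1 (-0.28) and Ak1 (-0.61). Sfn was also lost without either KO library after LIF withdrawal (-2.28 and -2.18) or the WT embryoid bodies (-2.30), Trp73 without the second KO library after LIF withdrawal (-1.61), and Cdkn1a without 4 further libraries, the KO libraries after LIF withdrawal (-0.64 and -0.61), the WT embryoid bodies (-0.69) and the second KO embryoid bodies (-0.63).

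The change of culture was then read within each genotype, against the pluripotent libraries that both responses of a genotype share. In WT, 10 members rose and 3 fell after LIF withdrawal, beside 11.6% and 8.90% of all genes (20.5% in all). Trp73 and Apaf1 both rose, with a log2 fold change of 0.97 (adjusted p = 0.0175 and 8.52e-05), Plk2 by 0.92 (adjusted p = 0.0143) and Ercc5 by 0.89 (adjusted p = 0.000448), while Pmaip1 fell, with -0.97 (adjusted p = 0.000683). This is a comparison of 1 library with 1 library whose spread is taken from the KO pairs, and DESeq2 called 5 members where edgeR called 13, with 5 and 3 in the limma fits. Plk2 lost its call in DESeq2 (adjusted p = 0.285) and in both limma fits (adjusted p = 0.109 and 0.144), and Trp73 in DESeq2 (adjusted p = 0.241) and in limma on log2(FPKM + 0.1) (adjusted p = 0.174). Mdm2, Mdm4, Trp53 and Cdkn1a were not called, with values of 0.14, -0.09, 0.06 and 0.17.

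In WT embryoid bodies 10 members rose and 4 fell against pluripotent culture, beside 19.7% and 18.9% of all genes (38.6% in all). Trp53inp1 rose by 0.98 on the log2 scale (adjusted p = 7.05e-05), Aen by 0.84 (adjusted p = 0.00083), Plk2 by 0.83 (adjusted p = 0.0129) and Cdkn1a by 0.67 (adjusted p = 0.00612). Sfn fell, with -0.86 (adjusted p = 0.000746), as did Plk3, with -0.72 (adjusted p = 0.00772). DESeq2 called 6 members and each limma fit 9, in place of 14, and Plk2 was lost in all of these fits (adjusted p = 0.231, 0.0934 and 0.124).

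In KO cells 12 members rose and 9 fell after LIF withdrawal, beside 30.2% and 29.0% of all genes (59.2% in all). Among the falls were log2 fold changes of -3.52 for Sfn (SE 0.14, adjusted p = 2.51e-09), -2.68 for Perp (SE 0.19, adjusted p = 2.33e-07), -1.95 for Btg2 (SE 0.17, adjusted p = 1.33e-06) and -0.92 for Cdkn1a (SE 0.13, adjusted p = 5.32e-05). Trp73 rose by 1.68 (SE 0.29, adjusted p = 0.000354) and Apaf1 by 1.07 (SE 0.09, adjusted p = 1.38e-06). Trp53 rose by 0.26 (adjusted p = 0.0123), a call that was lost without the second KO pluripotent library (0.24) and without the first KO library after LIF withdrawal (0.14). Mdm2 stood at 0.01 (adjusted p = 0.965).

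In KO embryoid bodies 17 members rose and 9 fell, beside 31.0% and 30.0% of all genes (61.0% in all). Sfn had the lowest value of the members, -3.77 (SE 0.14, adjusted p = 2.05e-09), followed by Perp at -2.07 (SE 0.17, adjusted p = 1.08e-06), and both fell. Trp73 rose by 2.32 (SE 0.27, adjusted p = 1.61e-05), Plk2 by 1.34 (SE 0.21, adjusted p = 0.000169), Tob1 by 1.28 (SE 0.10, adjusted p = 6.23e-07) and Trp53 by 0.39 (SE 0.08, adjusted p = 0.00101). The KO levels of Plk2 in embryoid bodies still lay below the WT pluripotent level.

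**Figure D4:**
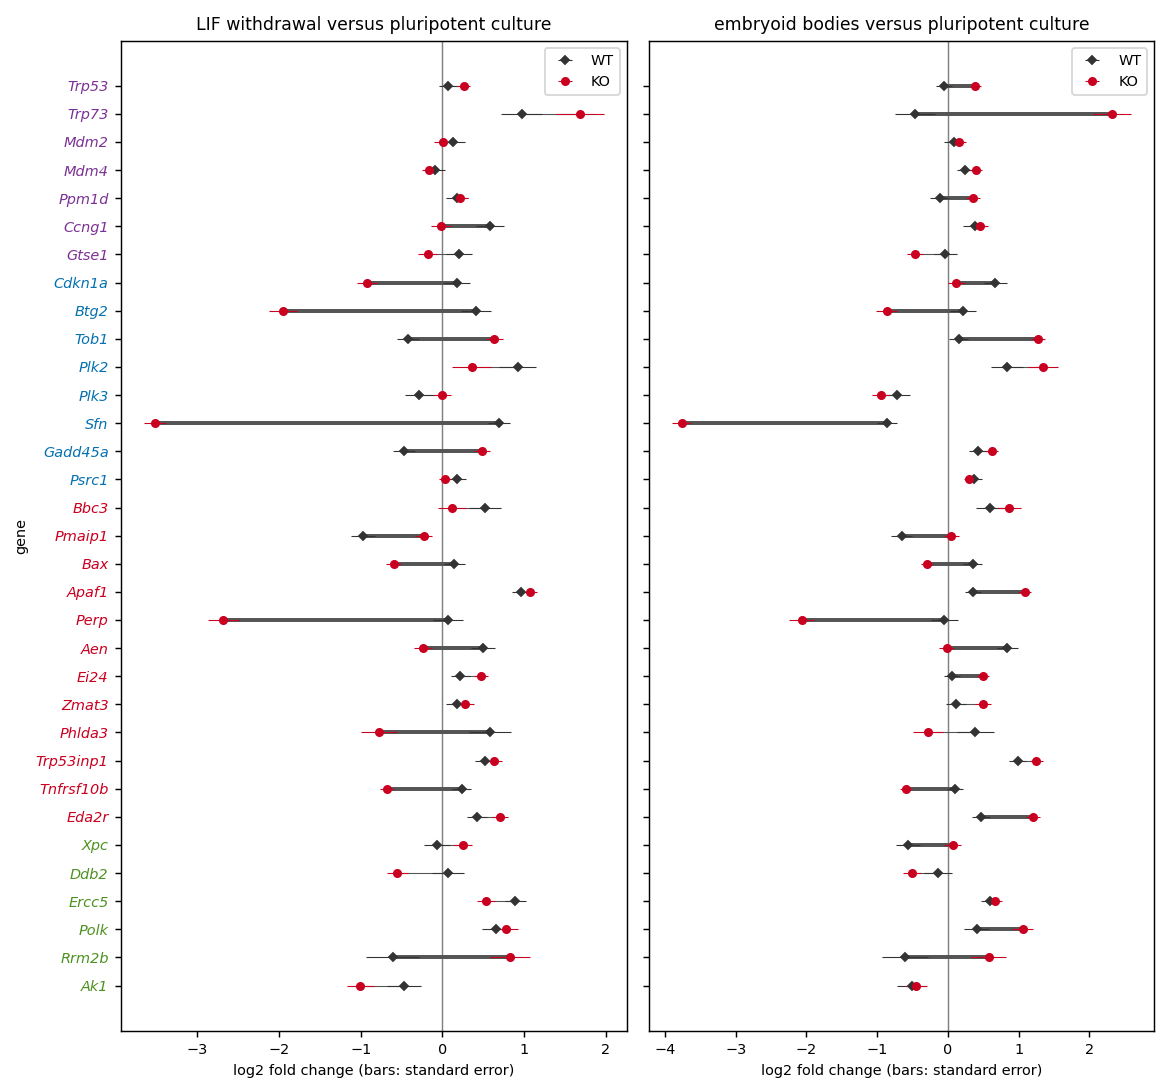
Log2 fold change (x axes) of each member (y axes) after LIF withdrawal (left) and in embryoid bodies (right) against pluripotent culture, for WT (black diamonds) and KO (red circles), with standard errors as thin bars. A thick line joins the genotypes where the difference of the responses had an adjusted p below 0.05, as for Sfn, Perp and Btg2, whose KO symbols lie left of WT in both panels, and for Tob1 and Rrm2b, whose KO symbols lie right of it.

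The difference between the KO and WT responses, tested as an interaction, was called for 13 members after LIF withdrawal, 4 with a higher and 9 with a lower response in KO, beside 17.5% and 14.9% of all genes (32.3% in all). The lowest were Sfn at -4.21 (SE 0.20, adjusted p = 3.32e-07), Perp at -2.75 (SE 0.27, adjusted p = 2.75e-05), Btg2 at -2.37 (SE 0.25, adjusted p = 4.59e-05) and Phlda3 at -1.36 (SE 0.34, adjusted p = 0.00943). Cdkn1a stood at -1.10 (SE 0.21, adjusted p = 0.00189). Rrm2b had the highest value, 1.43 (SE 0.41, adjusted p = 0.0185), at an FPKM of 1.30 in WT and 1.34 and 2.25 in KO after LIF withdrawal, so that its 2 KO libraries differed. Phlda3 and Rrm2b lost the call in DESeq2 (adjusted p = 0.14 and 0.146) and in both limma fits. No difference of responses was called for Mdm2 (-0.13, adjusted p = 0.608), Plk2 (-0.56, adjusted p = 0.213) or Bbc3 (-0.40, adjusted p = 0.259). These 3 genes fell in KO both in pluripotent culture and after LIF withdrawal, while for Sfn only the second of these was called.

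For embryoid bodies the difference of responses was called for 18 members, 11 higher and 7 lower in KO, beside 22.4% and 19.5% of all genes (41.8% in all). Sfn at -2.90 (SE 0.21, adjusted p = 2.35e-06), Perp at -2.02 (SE 0.26, adjusted p = 0.000103) and Btg2 at -1.08 (SE 0.24, adjusted p = 0.00364) were again the lowest. Trp73 was highest at 2.79 (SE 0.40, adjusted p = 0.000208), and Rrm2b stood at 1.18 (SE 0.41, adjusted p = 0.0375) and Tob1 at 1.13 (SE 0.17, adjusted p = 0.000275). Trp53 had 0.44 (SE 0.14, adjusted p = 0.0202), lost in DESeq2 (adjusted p = 0.0547) and without the second KO embryoid bodies (0.42, adjusted p = 0.0622). DESeq2 called 11 members in place of 18. Both differences use the same pluripotent libraries.

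Other genes of the pathway were read from lists that share no gene with the members. Like the members, these lists were chosen with earlier results of these data known. Of 28 further p53 targets tested, 5 rose and 12 fell in pluripotent culture, 2 rose and 13 fell after LIF withdrawal, and 3 rose and 9 fell in embryoid bodies, with list medians of -0.29, -0.48 and 0.02. Over the 3 conditions 2 rose and 9 fell. Of all genes, 25.5% rose and 26.3% fell in pluripotent culture, 18.4% and 17.4% after LIF withdrawal, 19.4% and 17.7% in embryoid bodies, and 13.3% and 13.8% over the 3 conditions, and these shares are the background for each list that follows. Ddit4, an mTORC1 inhibitor that p53 and other stress factors induce, had the largest change. Its FPKM was 82.8 in WT and 4.71 and 11.3 in KO in pluripotent culture, 129 against 13.0 and 28.2 after LIF withdrawal, and 93.2 against 21.6 and 28.0 in embryoid bodies, and it fell by 2.60 on the log2 scale over the 3 conditions (adjusted p = 0.000755). Dcxr, a sugar reductase, fell by 1.32 (adjusted p = 0.0144), and Cmbl, a hydrolase, rose by 1.62 (adjusted p = 0.037) from FPKM values under 1 in the WT libraries.

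Of 30 regulators and cofactors of p53, 8 rose and 12 fell in pluripotent culture, 5 rose and 9 fell after LIF withdrawal, and 4 rose and 10 fell in embryoid bodies. The counts that rose were near or below the background in each condition. Sirt1, a deacetylase that acts on p53, had an FPKM of 34.2 in WT and 73.4 and 80.1 in KO in pluripotent culture, 25.1 against 96.1 and 89.8 after LIF withdrawal, and 30.0 against 74.1 and 77.4 in embryoid bodies. Every KO library stood above every WT library, and Sirt1 rose by 1.51 on the log2 scale over the 3 conditions (adjusted p = 0.000208). Setd7, a methyltransferase that acts on p53, fell by 1.53 (adjusted p = 0.000258), and Ppp1r13l, which encodes the p53 inhibitor iASPP, fell by 1.38 (adjusted p = 0.000351).

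Of 17 BCL2 family genes and caspases, 3 rose and 4 fell in pluripotent culture, and 2 rose and 4 fell in each of the other 2 conditions, counts near or below the background. The protective Bcl2l1 rose by 0.83 on the log2 scale over the 3 conditions (adjusted p = 0.0191), from an FPKM of 16.3 in WT to 48.6 and 42.5 in KO in pluripotent culture. Bcl2l11, which encodes BIM, fell, with -1.08 (adjusted p = 0.00176). Of the other 5 CDK inhibitors, Cdkn2c and Cdkn2d rose (1.78 and 0.50) and Cdkn1c fell by 1.04 on the log2 scale over the 3 conditions. Cdkn1b was not called in that fit (0.54), but rose after LIF withdrawal and in embryoid bodies (0.84 and 0.89). Cdkn2c, with rounded counts of 7, 10 and 9 in the WT libraries, was not called in embryoid bodies. Within conditions Cdkn2d was called in embryoid bodies only (0.81), and Cdkn1c was not called after LIF withdrawal (-0.15). Of 11 further genes of nucleotide excision repair, Ercc6 (-0.55) and Cetn2 (-0.41) fell over the 3 conditions.

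Genes that p21 represses through the DREAM complex, 20 of which were tested, had more rises than falls called. In pluripotent culture 9 rose and 4 fell, beside 25.5% and 26.3% of all genes. After LIF withdrawal 11 rose, beside 18.4%, and in embryoid bodies 6 rose, beside 19.4%, with no falls called in those 2 conditions by edgeR, where 17.4% and 17.7% of all genes fell. At an unadjusted p below 0.05, 0 and 3 of them were lower there, the 3 being Aurkb, Cdc20 and Plk1 in embryoid bodies. Mybl2, a cell cycle transcription factor, had an FPKM of 244 in WT and 359.8 and 331 in KO in pluripotent culture, 159.8 against 314 and 311 after LIF withdrawal, and 156 against 309 and 299 in embryoid bodies. It rose by 0.87 on the log2 scale over the 3 conditions (adjusted p = 0.000624), Ccnb2 by 0.60 (adjusted p = 0.0016) and Cdk1 by 0.34 (adjusted p = 0.0467). The median of the list was 0.23, 0.33 and 0.05 in the 3 conditions.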

How the data were processed

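RNA was sequenced from 9 libraries of E14 mouse embryonic stem cells. The submitters' processing notes name Bowtie2 and build mm8, and the quantifier, its annotation and the strandedness are not given in the sources used here. The tables deposited by the authors hold expected counts, which are estimates and can be fractional, and FPKM values per gene, per the file headers. Between 78.0% and 78.4% of a library's expected counts were whole to within 0.005. A gene missing from a library's table was given 0 there. Of 20287 gene IDs, 20234 were matched by ID and 9 by accession to RefSeq names, and 44 kept their IDs.

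Expected counts were rounded and tested with edgeR 4.0.16 (quasi-likelihood, TMM factors 0.94 to 1.04, R 4.3.3) on 13990 genes, those whose mean FPKM reached 0.5. A fit with 1 mean for each of the 6 groups gave 9 comparisons, with 3 residual degrees of freedom from the KO pairs and a biological coefficient of variation of 6.52%. For the comparison over the 3 conditions, condition and genotype were fitted as additive terms (5 residual degrees of freedom, 18.1%), which pools spread within pairs and between conditions. Genes were called at a Benjamini-Hochberg adjusted p below 0.05 within a comparison. A standard error is the log2 fold change divided by the root of F. Chi-square values per degree of freedom between the KO libraries of a pair were 3.05 to 4.62, above counting noise. Each was treated as a library of its own, although this value cannot show whether they came from separate cultures. Alternatives were DESeq2 1.42.0, its size factors in edgeR, no filter, limma 3.58.1 on log2(FPKM + 1) and log2(FPKM + 0.1), leaving out each library, and a replicate block. The code was also run on simulated counts with 1 fixed spread and few changed genes. These settings differ from the data, so that run does not vouch for the calls made here.

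Full values are given for Trp53, Mdm2, Mdm4 and Cdkn1a, for members called in 1 direction in all 3 conditions, and for the 5 largest called changes per comparison, with up to 3 genes from each other list, of which 1 is not reported here. The members and lists were chosen with earlier results of these data known. Promoter windows come from RefSeq on GRCm38.p6 and are not in the coordinates of the files.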

Additional observations from a re-analysis of the deposited data

Results flagged for a closer look

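A test of the difference itself found that the response of 13 members to LIF withdrawal differed between KO and WT, and that of 18 members to embryoid body culture. Over all genes 32.3% and 41.8% were called in these comparisons, so that the count for LIF withdrawal, 13 of 33, lies near the background. Values are log2 fold changes in KO minus those in WT, from edgeR's quasi-likelihood test, and all use the same WT and KO pluripotent libraries.

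After LIF withdrawal the response was lower in KO for Sfn (-4.21), Perp (-2.75), Btg2 (-2.37), Phlda3 (-1.36), Cdkn1a (-1.10), Tnfrsf10b (-0.91), Bax (-0.74), Aen (-0.73) and Ccng1 (-0.60). It was higher in KO for Rrm2b (1.43), Tob1 (1.06), Gadd45a (0.96) and Pmaip1 (0.74). The value of Ccng1 lost its call without the first KO pluripotent library (-0.55), without the second KO library after LIF withdrawal (-0.43), with no filter (-0.60), in DESeq2 (-0.61) and in both limma fits (-0.55), and Phlda3 and Rrm2b lost theirs in DESeq2 and both limma fits. Pmaip1 lost it in limma on log2(FPKM + 0.1) (0.80).

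In embryoid bodies the response was lower in KO for Sfn (-2.90), Perp (-2.02), Btg2 (-1.08), Aen (-0.86), Tnfrsf10b (-0.69), Bax (-0.64) and Cdkn1a (-0.55). It was higher in KO for Trp73 (2.79), Rrm2b (1.18), Tob1 (1.13), Eda2r (0.74), Apaf1 (0.72), Pmaip1 (0.70), Polk (0.65), Xpc (0.63), Ppm1d (0.47), Ei24 (0.44) and Trp53 (0.44). In this comparison 8 values lost their call under at least 1 alternative. Leaving out 1 library took the call from Cdkn1a (-0.52, -0.60 and -0.35 without the first and second KO pluripotent libraries and the second KO embryoid bodies). It took the call from Ppm1d (0.49, 0.43 and 0.35 without the first and second KO pluripotent libraries and the first KO embryoid bodies), from Ei24 (0.40 without the first KO pluripotent library, 0.44 without either KO embryoid body library) and from Xpc (0.62, 0.64 and 0.50 without the first and second KO pluripotent libraries and the second KO embryoid bodies). Polk and Rrm2b were each lost without any 1 of 4 libraries, the KO pluripotent and KO embryoid body libraries, with Polk at 0.70, 0.59, 0.64 and 0.65 and Rrm2b at 1.19, 1.15, 1.21 and 1.14. DESeq2 also took the call from Cdkn1a (-0.56, adjusted p = 0.115), Polk (adjusted p = 0.296), Rrm2b (adjusted p = 0.227), Xpc (adjusted p = 0.205), Ei24 (adjusted p = 0.096), Ppm1d (adjusted p = 0.254) and Trp53 (adjusted p = 0.0547). Both limma fits took it from Cdkn1a (-0.43 in each, adjusted p = 0.182 and 0.197), Polk (adjusted p = 0.0826 and 0.0619) and Rrm2b (adjusted p = 0.0827 and 0.0863). With no filter on low values it was lost for Cdkn1a (adjusted p = 0.0544), Polk (adjusted p = 0.055) and Ppm1d (adjusted p = 0.063). Trp53 was lost without the second KO embryoid bodies (0.42), and Btg2 in limma on log2(FPKM + 0.1) alone (-0.94).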

How the results depend on the processing

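Several members that fell in all 3 conditions lost at least 1 call in DESeq2, as named above. The number of members called in a comparison moved by over 1.5 times under the following alternatives. For LIF withdrawal in WT it was 13, and 5 in DESeq2, 5 in limma on log2(FPKM + 1) and 3 in limma on log2(FPKM + 0.1). For embryoid bodies in WT it was 14, and 6, 9 and 9 in those fits, and for the difference of the embryoid body responses it was 18, and 11 in DESeq2. Leaving out 1 library gave 23 to 28 members called for KO versus WT in pluripotent culture, 24 to 27 after LIF withdrawal, 14 to 20 in embryoid bodies and 15 to 22 over the 3 conditions, with 15 without the WT library after LIF withdrawal. For the responses the ranges were 12 to 13 and 14 to 17 in WT (LIF withdrawal, embryoid bodies), 19 to 21 and 24 to 27 in KO, and 12 to 15 and 12 to 19 for the 2 differences. Without the pluripotent libraries, an alternative chosen after seeing the data, 22 members were called over the 2 other conditions. Apart from 1 case at the end of this paragraph, counts of all genes without the same libraries are not given. These member counts are therefore not set against a background. Over all tested genes, DESeq2 called 4796, 2843 and 2890 genes for KO versus WT in the 3 conditions in place of 7248, 5010 and 5202. It called 1228 and 2929 in place of 2866 and 5398 for the WT responses, and 2374 and 3286 in place of 4524 and 5854 for the differences, while leaving out the WT pluripotent library raised the count over the 3 conditions from 3787 to 5895.

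Of 2162 values of named members under alternatives, 2039 kept their direction and side of the threshold. Those that changed sign were uncalled in the fit reported and near 0: Mdm2 in KO after LIF withdrawal (-0.00 with no filter, and -0.04, -0.19 and -0.01 without the second KO pluripotent, first KO LIF withdrawal and WT embryoid body libraries, up to 0.17 without the second KO LIF withdrawal library), the difference of its LIF withdrawal responses (0.03 without the second KO library there, -0.32 without the first), and Cdkn1a in KO embryoid bodies (-0.11 without the first KO library, 0.32 without the second, where it was called, adjusted p = 0.0257). Calls were also gained for Mdm4 in embryoid bodies and Trp53 over the 3 conditions, as given with their values, and for Mdm4 in WT embryoid bodies against pluripotent culture with the replicate block (0.24, adjusted p = 0.0442). The cause was not tested.

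The labels number the KO libraries 1 and 2. Deviations of same-numbered libraries correlated at 0.22 between pluripotent culture and LIF withdrawal over 13990 genes. The values were 0.04 and 0.09 for embryoid bodies with each of these. They do not settle whether a number marks a shared clone or culture. In the fit reported the numbers were not taken as pairs, and the replicate block was run as an alternative. With the replicate block 28, 26 and 22 members were called for KO versus WT in the 3 conditions and 21 over all. The block gave 17 and 19 for the WT responses, 26 and 28 for the KO responses, and 17 and 22 for the differences. Counts of all genes with the block are not given here, so these member counts are not set against a background. In these libraries 3 counts correspond to between 0.276 and 0.296 CPM, and depth limits Rrm2b and Trp73, the members of lowest level, most.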

Other observations

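The 2 KO libraries of a condition were close for most members. The median size of the log2 difference between them was 0.10, 0.21 and 0.17 in pluripotent, LIF withdrawal and embryoid body culture. The widest values, KO 2 over KO 1, were -0.77 (Trp73) and 0.35 (Tob1) in pluripotent culture, -0.50 (Trp73) and 0.75 (Rrm2b) after LIF withdrawal, and -0.70 (Phlda3) and 0.26 (Xpc) in embryoid bodies.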
